A study of Rattus norvegicus with 20 samples.

Results

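The lesion epicenter and the cord just caudal to it were compared within each of 4 female Long-Evans rats with a cervical spinal cord injury. The members were 8 RNA-seq libraries of 20 in the series, chosen by their sample labels: the 4 libraries of region 4, the C4 epicenter, and the 4 of region 5, the caudal cord. Region 5 is given as C4 to C6 in the sample labels and as C5 to C7 in the design text, so its exact level is uncertain. All 4 wild-type rats were 6 to 8 months old, received a unilateral C4 contusion of 0.7 mm displacement and, 2 weeks later, electrodes implanted into motor cortex contralateral to the injury. Dexamethasone was given to all of them the day before the implant, with analgesic and antibiotic drugs around surgery. Starting 1 week after the implant, 2 animals received motor cortex stimulation at 10 Hz and 80% of the movement threshold. It was given for 5 h a day over 1 week. The 2 control animals were connected to a sham stimulator and did not receive it. Before that, pulses to each wire served to find the movement threshold, a test the paper does not limit to the stimulated animals. No uninjured cord and no uninjured rat was among the libraries, so that injury and spinal level cannot be told apart in this contrast.

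After a contusion, microglia and macrophages from blood gather at the epicenter and take up myelin and dead cells. The lipid of that debris is broken down in lysosomes by cathepsins and lipases, carried by apolipoproteins and exported through transporters such as Abca1. Neurons, with their neurofilaments and synaptic receptors, are lost from gray matter at the same site. Cells that take up cholesterol generally make less of it, since sterols repress the synthesis genes through the SREBP factors.

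Some phagocyte and lipid-handling genes were higher at the epicenter, and a number of neuronal and cholesterol synthesis genes and a few Hox genes were lower. The phagocyte and lysosome lists had positive medians in 3 animals. In stimulated animal 2 their medians were -0.29 and -0.35, where the median over all genes was -0.37. Mmp12, a macrophage elastase, Fabp4, a fatty acid carrier of lipid-laden macrophages, and Ctsk, a lysosomal cysteine protease, were higher at the epicenter in 4 of 4 animals, as were 3.87% of all genes tested. Neurofilament genes and Idi1, an enzyme of the isoprenoid steps of cholesterol synthesis, were lower in 4 of 4 animals, as were 29.9% of all genes. None of these differences passed the paired test of the contrast, as described next. In such bulk samples, fewer cells of a type and less RNA per cell cannot be told apart.

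The 8 libraries held between 13181 and 13546 genes at 1 FPKM or more. Levels were deposited as FPKM, fragments scaled by transcript length and by library size, with a lowest listed value of 0.1. Differences below are log2 FPKM at the epicenter minus log2 FPKM in the caudal cord, as the mean of 4 animals. Of 30443 genes, 15210 reached 1 FPKM in at least 1 library and were tested. In the limma fit paired within animals, 0 genes were higher and 0 were lower at an adjusted p of 0.05, which is 0.00% of the genes tested in each direction. The smallest adjusted p was 0.0838, for Hoxc9. At an unadjusted p under 0.05 the same fit gave 654 genes higher, 4.30%, and 3224 lower, 21.2%. This fit leaves 3 residual degrees of freedom, and an exact sign-flip test over 4 pairs cannot give a two-sided p under 0.125.

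A limma model of all 20 libraries, with region means and the animal as a block, has 12 residual degrees of freedom. It called 190 genes higher, 1.25% of those tested, and 1776 lower, 11.7%. This model was listed as an alternative, and it was taken as the second reading only after the paired fit had called none and the counts of the other fits were known. Of the planned fits it gave the most calls. Its estimate of spread includes 8 white matter libraries, and among the 12 spinal cord libraries the same model called 191 genes higher and 968 lower. Of the 190 and 1776 genes, 76 and 791 also passed among those 12 libraries. Without control animal 1 it called 0 higher and 2 lower, and without control animal 2 it called 0 and 28. Without stimulated animal 2 it called 934 and 1072. A gene is therefore called higher or lower below only with reference to this model, and the values of each animal stand beside it.

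The median difference over all genes was -0.14, and it was -0.14 and -0.08 in the control animals and 0.02 and -0.37 in the stimulated animals. A median below 0 shifts calls downward. Of the calls of the 20-library model, 90.3% were lower, against 60.9% after quantile normalization, where 319 genes, 2.10%, were higher and 497, 3.27%, were lower. The epicenter libraries lay entirely above the caudal libraries for 280 genes, 1.84%, and entirely below for 2478, 16.3%. Only 49 of the genes called higher and 32 of those called lower differed by 2-fold or more.

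**Figure D1:**
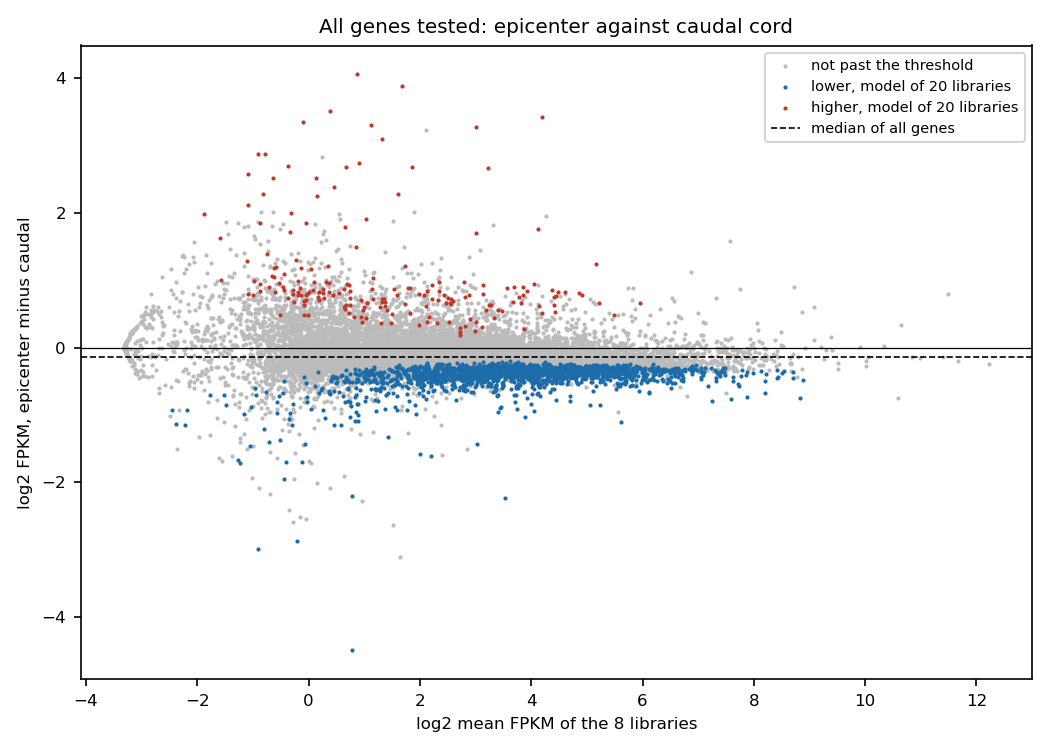
Each point is 1 of the 15210 genes tested, with log2 mean FPKM of the 8 libraries on the horizontal axis and the log2 difference, epicenter minus caudal cord, on the vertical axis. Red and blue points are the 190 genes higher and 1776 lower in the model of 20 libraries, and the dashed line is the median of all genes at -0.14, below which most blue points lie.

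The list of lesion phagocyte genes had 22 members, and all 22 were tested. Their median difference was 1.02, against -0.14 over all genes, and the difference was above 0 for 22 of 22. The 20-library model called 4 higher and 0 lower, against 1.25% of all genes higher, and for 6 members the epicenter libraries all lay above the caudal ones, as for 1.84% of all genes. The median was 1.96 and 1.49 in control animals 1 and 2 and 1.14 in stimulated animal 1. In stimulated animal 2 it was -0.29, where the median over all genes was -0.37. The summed FPKM of the list ran from 741 to 1916 at the epicenter and from 746 to 936 in the caudal cord.

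Mmp12 was at 7.78 and 3.37 FPKM in the control and 1.54 and 1.12 in the stimulated epicenters. In the caudal cord it was listed at 0.1 in 3 animals and stood at 0.584 in stimulated animal 2. The groups did not overlap, and the difference was 4.06 (SE 0.62, limma model of 20 libraries, adjusted p = 0.00474). Since 3 caudal values are at the lowest listed value, the size of this difference depends on that value.

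Fabp4 was at 26.7 and 17.8 FPKM in the control and 9.86 and 4.46 in the stimulated epicenters, against 0.994, 0.709, 1.41 and 2.44 caudally. All epicenters were higher, and the order among them was that of Mmp12. The difference was 3.27 (SE 0.63, limma model of 20 libraries, adjusted p = 0.0117).

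Atp6v0d2, a subunit of the proton pump that acidifies lysosomes, was at 2.02, 1.50, 0.467 and 0.219 FPKM at the epicenter, in the same order of animals. It was listed at 0.1 in 3 caudal libraries and at 0.108 in the remaining one. The difference was 2.87 (SE 0.60, limma model of 20 libraries, adjusted p = 0.0139). Lpl, a lipase that frees fatty acids from lipoproteins, was higher in 3 of 4 animals, with a difference of 0.98 (SE 0.29, limma model of 20 libraries, adjusted p = 0.0398). Lpl did not pass among the 12 cord libraries (limma, adjusted p = 0.104), and its interval in the paired fit ran from -0.12 to 2.09.

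Gpnmb, a glycoprotein of phagocytes and one of the genes the study named, was at 434, 322 and 293 FPKM in the epicenters of control animals 1 and 2 and stimulated animal 1. Their caudal values were 78.7, 80.5 and 78.0. In stimulated animal 2 it was at 120 at the epicenter and 122 caudally, so the groups overlapped. The difference of 1.59 did not pass in the 20-library model (limma, adjusted p = 0.0894). Cd68, a lysosomal protein of macrophages named here after its values were seen, was at 45.2, 32.6, 31.9 and 13.1 FPKM against 5.75, 5.84, 7.11 and 11.6, without overlap (limma model of 20 libraries, adjusted p = 0.0778).

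Lgals3, a galactose-binding lectin of phagocytes, differed far less. It was at 271, 208, 215 and 123 FPKM at the epicenter and 190, 177, 166 and 182 caudally. The difference was 0.14 with a 95% interval from -0.39 to 0.67 in the paired fit. Cd44, a hyaluronan receptor, had a difference of 0.09 with an interval from -0.32 to 0.50. Both were also high in the caudal cord relative to the rostral cord, where Lgals3 was between 42.5 and 74.7. The 4 genes the study named came from the same animals, so their levels are not independent evidence. It showed Lgals3, Cd44 and Gpnmb for the white matter below the electrodes, which is not compared here, and Trpv1 for the caudal cord.

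**Figure D2:**
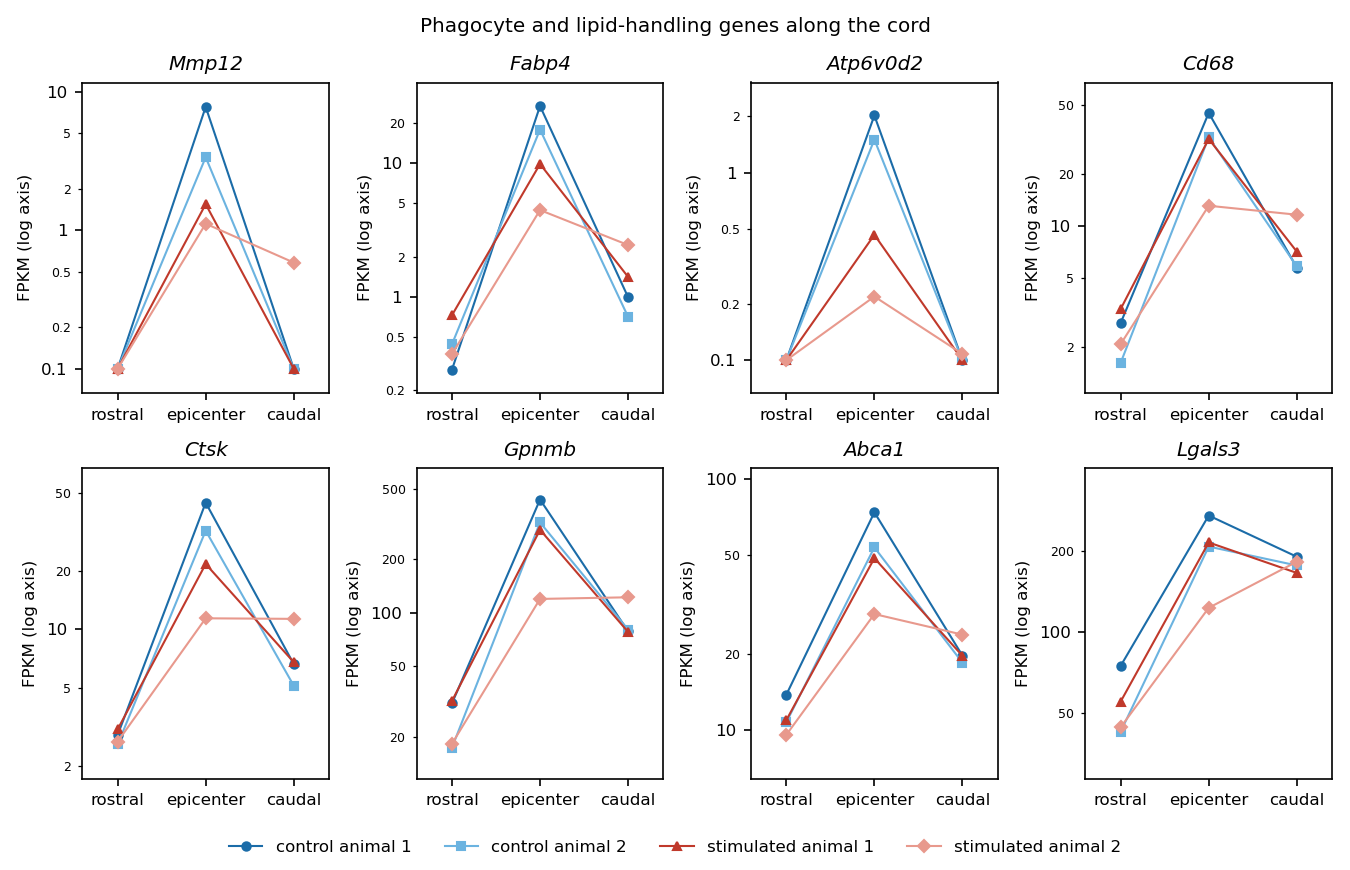
FPKM on log axes of 8 phagocyte and lipid-handling genes in the rostral cord, epicenter and caudal cord, with 1 line per animal. Lines of the 4 animals peak at the epicenter for Mmp12 and Fabp4, while Gpnmb of stimulated animal 2 is at 120 at the epicenter and 122 caudally.

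The lysosome and lipid handling list had a median difference of 0.38 over 22 genes, against -0.14 over all genes. In the 20-library model 3 were higher and 0 lower, against 1.25% and 11.7% of all genes. In stimulated animal 2 the list median was -0.35, where the median over all genes was -0.37. The summed FPKM of the list in this animal was 4705 at the epicenter and 5911 caudally. That of all genes was 217013 and 290718. Ctsk was at 44.5, 32.0, 21.6 and 11.4 FPKM at the epicenter and 6.64, 5.15, 6.79 and 11.3 caudally. The values of stimulated animal 2 were nearly equal, and those of the other animals were apart. The difference was 1.76 (SE 0.41, limma model of 20 libraries, adjusted p = 0.0190).

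Abca1, which exports cholesterol to lipoproteins, was at 73.7, 53.4, 48.4 and 28.9 FPKM at the epicenter and 19.7, 18.5, 19.7 and 23.9 caudally. All epicenters lay above all caudal libraries. Its difference was 1.25 (SE 0.33, limma model of 20 libraries, adjusted p = 0.0297). Abcg1, which also exports sterols, was higher in 3 of 4 animals with a difference of 0.51 (SE 0.14, limma model of 20 libraries, adjusted p = 0.0344), but did not pass among the 12 cord libraries (adjusted p = 0.0545). Apoe, the main apolipoprotein of the nervous system, was at 4802, 3922, 3843 and 2142 FPKM against 1904, 1868, 1903 and 2528, and its difference of 0.79 did not pass (limma model of 20 libraries, adjusted p = 0.0547). Apoc1, another apolipoprotein, was higher in 4 of 4 animals by 1.70 (SE 0.30, limma model of 20 libraries, adjusted p = 0.00890).

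Promoter sequences of the phagocyte, lysosome, cholesterol synthesis and neuronal cytoskeleton lists were searched on both strands for 6 motifs, in windows of 300 bases from RefSeq on build GRCr8. The motifs were TCATGTGA and TCACGTG, which are elements of the E-box kind, together with CACGTGAC, which overlaps the second of these, the purine-rich motif GGAAGT, and the longer TTCAGCACC and TCACNCCAC. That made 24 combinations of list and motif, and the first 2 motifs are described for the phagocyte and lysosome lists because they matched there, a choice made after the matches were seen. Of the 44 genes of these lists, 30 had a promoter entry. TCATGTGA was found in 4 of them, 13.3%, against 1.16% of all 33469 promoters, and TCACGTG in 4, 13.3%, against 3.2%. TCACGTG was also found in 2 of 13 cholesterol synthesis promoters, 15.4%. TCACNCCAC, a form of sterol regulatory element, was found in 0 of those 13, against 1.12% of all promoters, and GGAAGT in 6 of the 30, 20%, against 22.6%. The list shares count genes with a match in any of their promoter entries, whereas the shares of all promoters count entries. The 2 kinds of share are therefore not strictly alike.

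The 250 bases before the start of 3 of these genes are shown because they hold the matches in genes that differ in level and size of difference. Capitals mark the matches to TCATGTGA or TCACGTG on either strand. They are at chr4:79340878-79341127, plus strand, for Gpnmb, chr7:1921894-1922143, plus strand, for Cd63, a membrane protein of late endosomes, and chr1:206968822-206969071, minus strand, for Ctsd, the lysosomal aspartic protease.
Gpnmb: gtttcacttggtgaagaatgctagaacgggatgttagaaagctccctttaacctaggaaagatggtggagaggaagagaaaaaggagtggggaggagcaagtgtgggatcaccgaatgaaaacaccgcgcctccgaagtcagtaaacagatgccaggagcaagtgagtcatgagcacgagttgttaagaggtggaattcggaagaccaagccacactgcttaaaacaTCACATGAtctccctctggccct
Cd63: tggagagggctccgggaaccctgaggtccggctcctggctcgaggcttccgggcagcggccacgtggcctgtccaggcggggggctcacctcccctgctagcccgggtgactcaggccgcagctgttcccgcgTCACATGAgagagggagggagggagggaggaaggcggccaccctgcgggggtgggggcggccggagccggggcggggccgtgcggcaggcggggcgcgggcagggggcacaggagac
Ctsd: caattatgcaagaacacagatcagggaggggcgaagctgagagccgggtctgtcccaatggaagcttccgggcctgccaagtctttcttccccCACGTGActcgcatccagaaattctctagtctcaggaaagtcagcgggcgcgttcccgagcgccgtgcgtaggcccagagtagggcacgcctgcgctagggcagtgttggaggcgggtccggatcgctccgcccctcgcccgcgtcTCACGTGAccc
The match of Gpnmb begins 23 bases before the start and that of Cd63 117 bases before it. The differences of Gpnmb, Cd63 and Ctsd were 1.59, 0.37 and 0.53, and none passed in the 20-library model.

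Of the T, B and NK lymphocyte list, 8 of 20 genes were tested and 2 were higher in the 20-library model, against 1.25% of all genes. After quantile normalization 1 was higher, against 2.10% of all genes. Cd8a, a chain of the CD8 coreceptor, was at 7.82, 4.41, 4.15 and 1.49 FPKM at the epicenter and 0.315, 0.278, 0.370 and 1.22 caudally. Its difference was 3.10 (SE 0.95, limma model of 20 libraries, adjusted p = 0.0448), and it did not pass after quantile normalization (limma, adjusted p = 0.0614). Cd8b, the other chain, had a difference of 2.38 (SE 0.68, limma model of 20 libraries, adjusted p = 0.0368). Cd4, the other T cell coreceptor, which macrophages and microglia of the rat also carry, had a difference of 0.81, Cd2, an adhesion receptor of T cells, had one of 0.50, and neither was called. Lck and Cd3d of the same list had differences of 0.08 and -0.18 and were not called either, Cd3d being named here after its values were seen. Cd3e, a defining gene of T cells named here after its values were seen, was listed at 0.1 in all 8 libraries. Which cells carried Cd8a and Cd8b was not tested. Siglec1, a sialic acid receptor of macrophages, was higher in 4 of 4 animals by 2.75 (SE 0.49, limma model of 20 libraries, adjusted p = 0.00967).

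The remaining genes that the naming rule picked at the top of the 20-library calls were of several kinds. Lilrb4, an inhibitory receptor of myeloid cells, was at 10.4, 7.73, 4.18 and 1.83 FPKM at the epicenter and at most 0.597 caudally. Ifitm1, an interferon-induced membrane protein, was higher by 3.42, and Ddx60, an interferon-induced helicase, by 1.50. Ucn, a peptide of the corticotropin-releasing family, was higher by 2.52 with 2.83, 1.84, 1.28 and 1.54 FPKM against 0.298, 0.449, 0.371 and 0.193. Sost, an inhibitor of Wnt signaling, Psca, a surface protein, and Mcoln3, a cation channel of endosomes, were higher by 2.68, 2.69 and 1.80. All 15 genes picked had epicenter libraries above all caudal libraries, as did 1.84% of all genes. Since the rule took the largest differences with the same sign in 4 animals, this adds no support.

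Other immune lists gave fewer calls. Of 18 complement genes, 0 were higher and 2 lower, a share near the 11.7% of all genes called lower, and the list median was 0.72. C1qa, a subunit of the first complement component, was at 289, 147, 272 and 108 FPKM against 123, 87.5, 129 and 116, and its levels overlapped. The 2 genes called lower, Cd55 and Cd59, are inhibitors of complement on the cell surface. Cd55 was at 1.64 and 1.25 FPKM in the control and 2.82 and 4.59 in the stimulated caudal cord, and at most 1.25 at the epicenter. Its differences were -0.62 and -0.07 in the control and -1.17 and -2.16 in the stimulated animals. Cd59 had a difference of -0.37 (SE 0.10, limma model of 20 libraries, adjusted p = 0.0283), which was -0.17 after quantile normalization and no longer passed (adjusted p = 0.156), and neither gene passed among the 12 cord libraries (limma, adjusted p = 0.0700 and 0.0503). Neither the homeostatic microglia list, the border and blood macrophage list nor the antigen presentation list had a call in either direction. Cd74, the invariant chain of class II molecules, and RT1-Da, a class II chain, were lower in 4 of 4 animals with overlapping levels, at -0.54 and -0.64, and did not pass in the 20-library model (limma, adjusted p = 0.733 and 0.656).

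Of 22 neuronal cytoskeleton and terminal genes tested, 0 were higher and 14 lower in the 20-library model, against 11.7% of all genes lower, and the median was -0.43 against -0.14 over all genes. After quantile normalization 8 were lower, against 3.27% of all genes. For 19 the epicenter libraries all lay below the caudal libraries, as for 16.3% of all genes.

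Nefm, the medium neurofilament subunit, was at 121, 99.2, 137 and 91.4 FPKM at the epicenter and 187, 182, 199 and 201 caudally. The groups were well apart, and the difference was -0.80 (SE 0.10, limma model of 20 libraries, adjusted p = 0.00192). Nefl, the light subunit, was at 366, 323, 395 and 287 FPKM against 566, 556, 582 and 579. Nefh, the heavy subunit, and Tubb3, the neuronal tubulin, had differences of -0.74 and -0.76. In the rostral cord Nefl was between 369 and 430, close to the epicenter and below the caudal cord.

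Motor neuron and cholinergic genes gave 0 higher and 5 lower of 14, against 11.7% of all genes lower, with a median of -0.46. After quantile normalization 3 were lower, and Chodl and Slc5a7 no longer passed (limma, adjusted p = 0.231 and 0.436). Chodl, a marker of fast motor neurons, was at 30.4, 19.9, 24.8 and 20.1 FPKM at the epicenter and 45.8, 39.5, 43.4 and 41.1 caudally. Its rostral values, from 13.1 to 23.8, were also below the caudal ones. Slc5a7, the choline transporter, and Ache, acetylcholinesterase, were lower by differences of -0.62 and -0.57. Prph, an intermediate filament of motor and sensory neurons, and Isl1, a factor of both, had differences of -1.10 and -1.21. Both were higher in the stimulated than in the control caudal cord, as were the sensory ganglion genes described below, with Isl1 at 0.522 and 0.495 FPKM in the control and 1.17 and 1.04 in the stimulated animals, and Prph at 57.4 and 56.6 against 72.3 and 80.0.

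Of receptors, 7 of 15 glycine and GABA receptor genes and 1 of 15 glutamate receptor genes were lower, against 11.7% of all genes. After quantile normalization they were 2 and 0, against 3.27% of all genes. The glutamate receptor count is no larger than that of genes in general. Glrb, the beta subunit of glycine receptors, was at 39.6, 37.0, 46.0 and 37.9 FPKM against 58.9, 52.1, 52.6 and 53.6, and its call was lost after quantile normalization (limma, adjusted p = 0.134). Its rostral values ran from 51.0 to 65.5, so here the epicenter was the lowest of the 3 regions. Pvalb, a calcium-binding protein of inhibitory and sensory neurons, was at 42.9, 49.7, 58.7 and 40.5 FPKM against 77.6, 76.7, 72.4 and 69.5, and between 76.7 and 109 rostrally. Among interneuron lists, 2 of 13 inhibitory and 2 of 13 excitatory genes were lower, close to the 11.7% of all genes, and 1 of each after quantile normalization.

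The cholesterol synthesis list had 0 higher and 16 lower of 18 genes in the 20-library model, and 7 lower after quantile normalization, against 11.7% and 3.27% of all genes. Its median was -0.47, and all 18 differences were below 0. Idi1 was at 11.6, 10.5, 10.3 and 10.1 FPKM at the epicenter and 18.0, 13.8, 13.4 and 18.5 caudally. The groups did not overlap, and the difference was -0.57 (SE 0.10, limma model of 20 libraries, adjusted p = 0.00890).

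Fdps, which makes farnesyl diphosphate, was at 38.5, 35.6, 38.8 and 38.5 FPKM against 60.7, 47.4, 50.8 and 66.4, without overlap. Its rostral values ran from 52.6 to 59.7, above each epicenter library. The difference was -0.56 (SE 0.10, limma model of 20 libraries, adjusted p = 0.00890). Hmgcs1, an early enzyme of the pathway, was lower in 4 of 4 animals, but its levels overlapped between the regions and it did not pass after quantile normalization. In contrast to the phagocyte list, stimulated animal 2 was not apart here, with list medians of -0.61 and -0.36 in the control and -0.25 and -0.58 in the stimulated animals.

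**Figure D3:**
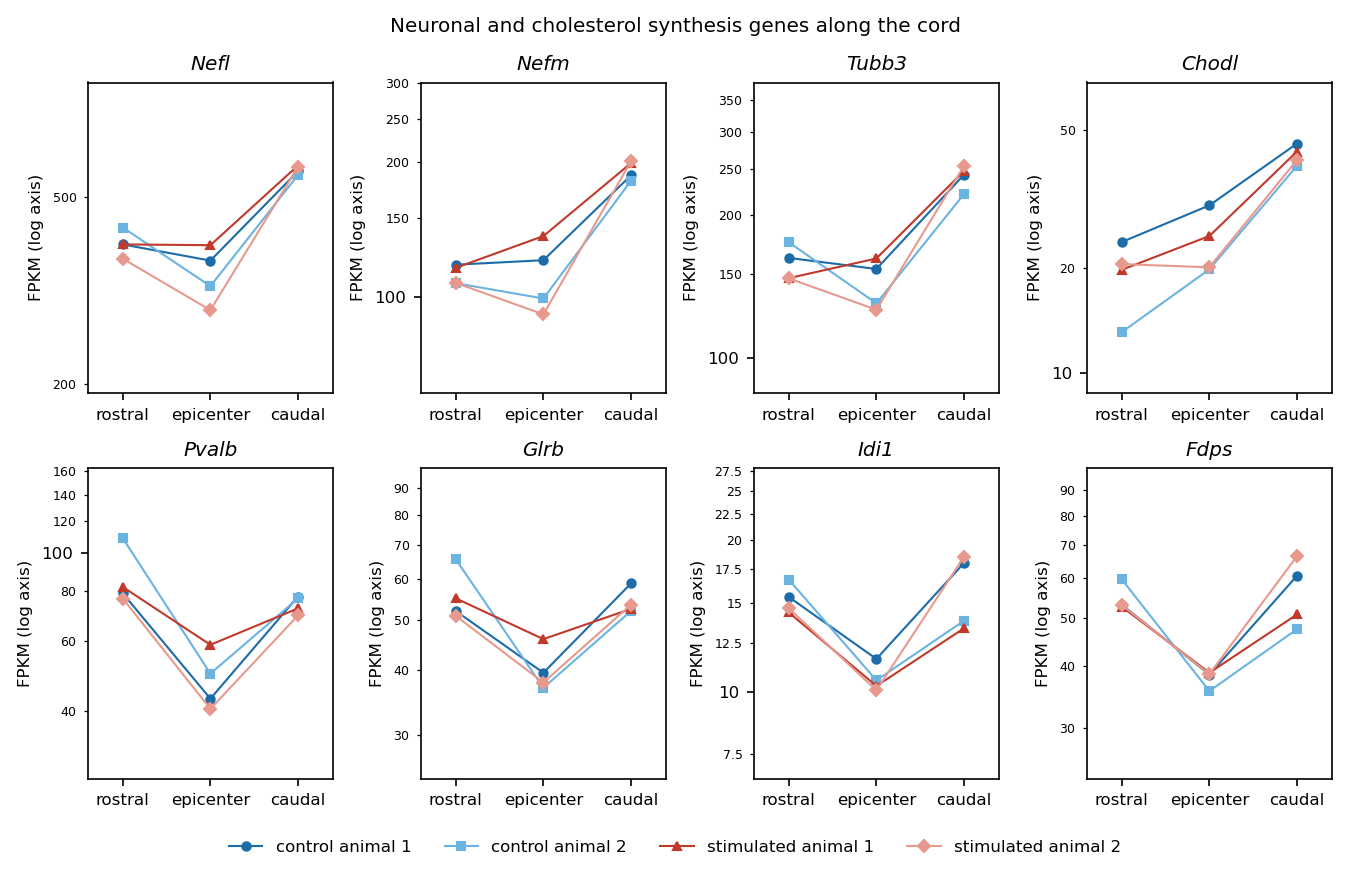
FPKM on log axes of 6 neuronal and 2 cholesterol synthesis genes in the rostral cord, epicenter and caudal cord, with 1 line per animal. Each gene is lower at the epicenter than caudally in 4 of 4 animals; Nefl is between 369 and 430 rostrally, near its epicenter level, whereas Glrb is lowest at the epicenter.

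Hox genes mark position along the body axis, and 3 of 21 tested were called lower, against 11.7% of all genes. Hoxc9 was at 0.350, 0.1, 0.114 and 0.1 FPKM at the epicenter and 4.50, 2.88, 2.56 and 3.08 caudally. The difference was -4.49 (SE 0.35, limma model of 20 libraries, adjusted p = 1.82e-05), and its size rests on values at the lowest listed level. Hoxc8 was at 8.13, 2.59, 5.59 and 2.00 FPKM against 20.3, 17.8, 19.0 and 16.4, and at most 0.650 rostrally. Hoxa7 had a difference of -0.77. The list median was -0.15, and others of like position, Hoxb8 at -0.02, Hoxd8 at -0.26 and Hoxb9 at -0.87, were not called, of which Hoxb8 and Hoxb9 are named here after their values were seen. Hoxc8 and Hoxa7 were higher in each caudal library than in each rostral one.

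Myelin and astrocyte lists had medians close to that of all genes. Of 17 oligodendrocyte myelin genes, 0 were called, with a median of -0.16. Mbp, the myelin basic protein, was at 4521, 3941, 4610 and 4381 FPKM against 5642, 4675, 4608 and 5813. Its differences were -0.32 and -0.25 in the control and 0.0006 and -0.41 in the stimulated animals. Its interval in the paired fit, from -2.22 to 1.73, is far wider than these and does not bound a difference. In that fit limma moved the error of each gene toward a trend over expression level. The SE of Mbp was 0.77 there and 0.20 in the 20-library model. Of 17 reactive astrocyte genes, 0 were called. Gfap, the astrocyte filament, had a difference of -0.14, and the sign changed to 0.02 after quantile normalization. Its interval in the paired fit, from -1.15 to 0.88, was also wider than its animal differences, which ran from -0.49 to 0.19.

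**Figure D4:**
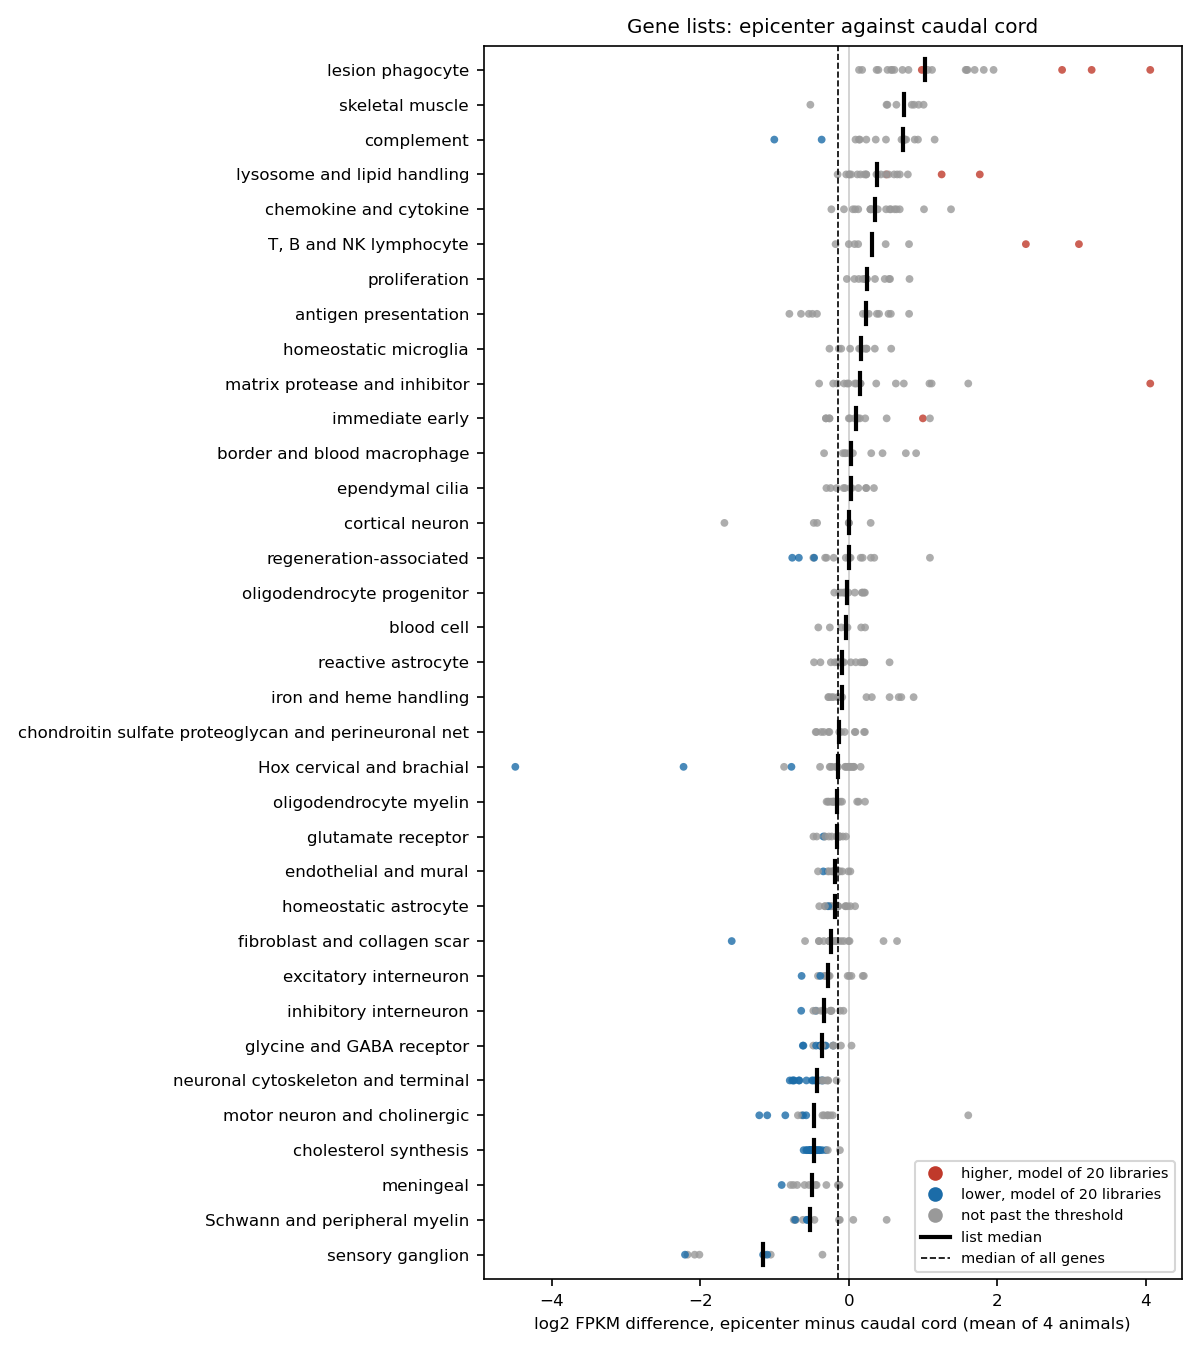
Each point is a gene of a list, at its log2 difference, epicenter minus caudal cord, with black bars at list medians and a dashed line at the median of all genes, -0.14. Red and blue points passed in the model of 20 libraries; the phagocyte list has the highest median, 1.02, and the sensory ganglion list the lowest, -1.15.

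Several sensory ganglion, peripheral nerve and connective tissue genes had higher values in the caudal cord of the stimulated animals, and none of those named in this and the next 2 paragraphs passed the interaction test described after them. The adjusted p of that limma test was 0.0723 for Avil, 0.153 for Scn10a and 1.0 for Pmp22 and Mfap5. Avil, an actin regulator of sensory neurons, was at 0.372 and 0.236 FPKM in the caudal cord of the control and 4.03 and 7.92 in that of the stimulated animals, and at most 0.402 at the epicenter. Scn10a and Scn11a, sodium channels of pain-sensing neurons named here after their values were seen, were above 0.1 FPKM among the 12 cord libraries in those 2 alone, with Scn10a at 1.32 and 2.39 and Scn11a at 1.41 and 2.92. P2rx3, an ATP receptor of sensory neurons, was at 2.46 and 4.69 FPKM there and at most 0.383 in the other caudal and epicenter libraries. Trpv1, the capsaicin receptor, was at 1.22 and 2.13 against 0.499 and 0.388. The study had already shown Trpv1 as higher after stimulation in these caudal libraries, so its values add no support.

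The median of the sensory ganglion list was -0.19 and -0.24 in the control and -1.47 and -2.49 in the stimulated animals, over 9 genes tested of 12. Its summed FPKM ran from 93.8 to 158 in the caudal cord and from 56.0 to 79.5 at the epicenter. Most of the caudal sum was Prph, between 56.6 and 80.0, and Calca, between 32.7 and 53.1. Both are also in the motor neuron list, so the sum is not a measure of ganglion genes alone. Pmp22, a membrane protein of peripheral myelin, was at 142 and 138 FPKM in the stimulated caudal libraries and at 88.8 and 75.7 in the control ones. The Schwann list median was 0.15 in control and -0.91 in stimulated animals, and that of the fibroblast and collagen list 0.36 and -0.87. Of 13 Schwann list genes tested, 0 were called higher and 3 lower, against 11.7% of all genes lower. After quantile normalization 2 were lower, against 3.27% of all genes. Cadm3, one of those 3, did not show higher stimulated values, with 68.2 and 64.1 FPKM in the control and 65.9 and 67.6 in the stimulated caudal cord. The part of ganglion, nerve root or meningeal tissue in these differences was not tested.

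Many of the genes that the rule picked at the bottom of the 20-library calls moved with these lists. Pirt, a regulator of Trpv1, was at 0.253 and 0.288 FPKM in the control and 2.47 and 3.37 in the stimulated caudal cord. Mfap5, a microfibril protein, was at 3.37 and 3.28 against 6.22 and 12.1, and between 1.43 and 2.04 at the epicenter. Myoc, Sfrp5, Plac9, Lect1, Aoc3, Chrna3, Isl2 and Defb1, an antimicrobial peptide, were also higher in both stimulated caudal libraries than in both control ones. Fam159b was not, with 1.45, 0.879, 1.01 and 1.18 FPKM caudally.

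The difference between stimulated and control animals in this contrast was tested with limma on 2 animals against 2. It called 1 gene, 0.00657% of those tested, and 463 genes, 3.04%, at an unadjusted p under 0.05. The gene was Tyrp1, a melanin enzyme of pigment cells, which was listed at 0.1 in both control caudal libraries and stood at 2.90 and 2.74 FPKM in the stimulated ones. Its interaction was -4.82 (SE 0.16, limma, adjusted p = 0.0201). Both its size and its SE rest on the lowest listed value. All epicenter and both control caudal libraries were at 0.1, so they show no spread. The call was lost with a floor of 1 FPKM, after each of the 3 other scalings, in the fit without a trend and without stimulated animal 2, where 0 genes passed. The larger phagocyte differences of the control animals did not pass this test.

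**Figure D5:**
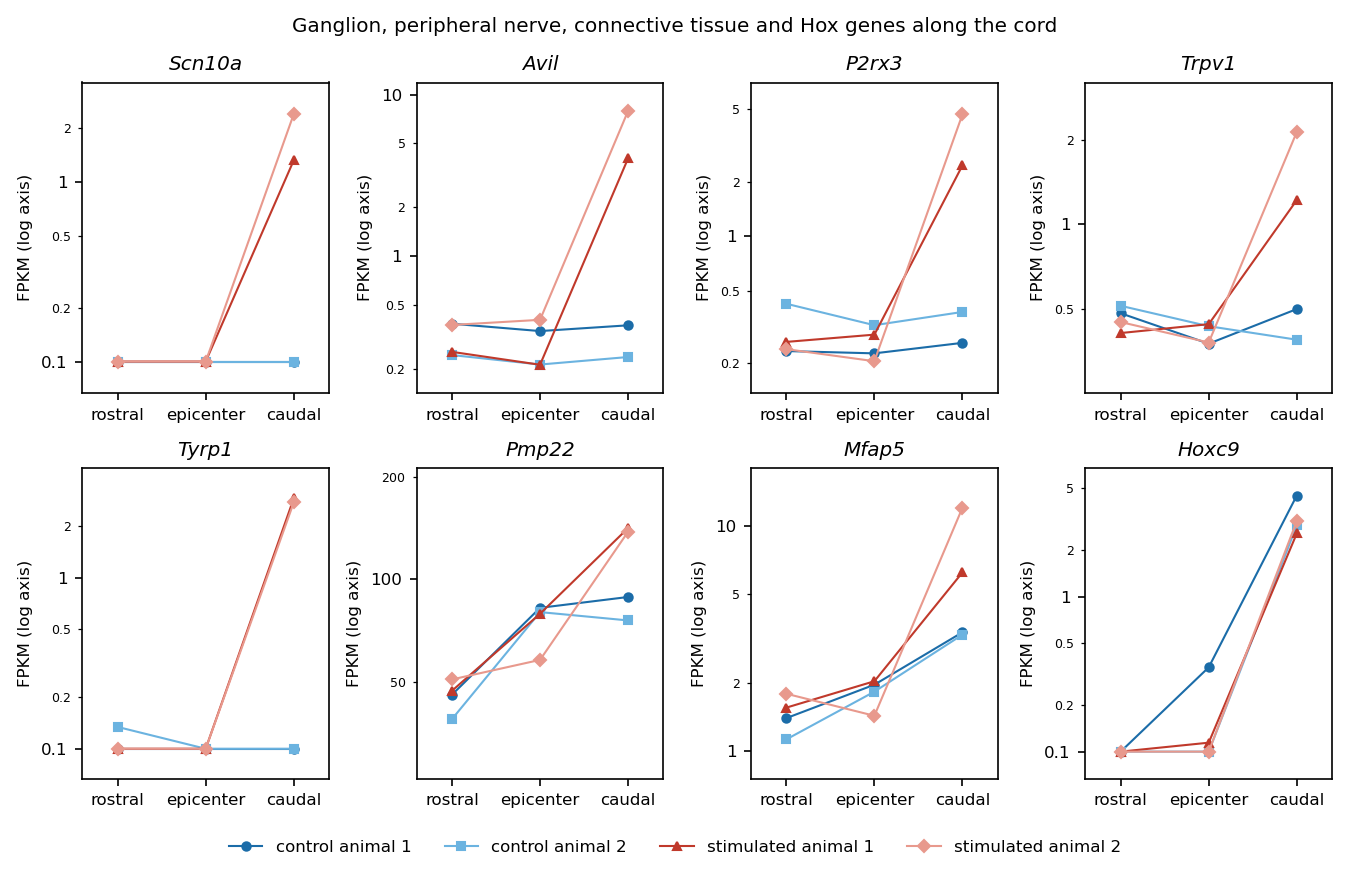
FPKM on log axes of sensory ganglion, pigment, peripheral myelin, connective tissue and Hox genes in the rostral cord, epicenter and caudal cord, with 1 line per animal. Scn10a and Tyrp1 leave the lowest listed value in the caudal cord of the 2 stimulated animals, at 1.32 and 2.39 and at 2.90 and 2.74, while Hoxc9 is high in the caudal cord of all 4 animals.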

How the data were processed

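Total RNA of 5 regions of 4 rats was depleted of ribosomal RNA and sequenced by the authors, who aligned reads to Rnor6 with TopHat2 2.1.0 and estimated expression with Cufflinks 2.2.1. The authors deposited FPKM values with a floor of 0.1, so the depth behind a gene is unknown. Errors come from the variation among animals, which limma moved toward a trend over expression level. FPKM was log2-transformed, and genes of at least 1 FPKM in any of 20 libraries were kept. The main fit was limma 3.58.1 (R 4.3.3, eBayes with trend) on 8 libraries with the animal as block, with Benjamini-Hochberg adjustment over all 15210 genes at 0.05. It called no gene, so the naming rule was applied to the model of 20 libraries, a choice made after the counts of all fits were seen. Some genes the rule picked are not reported here. The rule took the 15 largest differences in each direction with the same sign in 4 animals, up to 5 genes of each list, the 4 genes the study names and the interaction calls. Members and lists were chosen with earlier results of these data known. Libraries were paired because they came from the same animal, and their deviations correlated by 0.064, 0.105, 0.031 and -0.088. Of the tested genes, 111 were at 0.1 in all 8 libraries, and 56 symbols occurred more than once, where the entry of highest mean was used. Strand of counting is not given in the sources used here, so overlapping and antisense genes are uncertain. Other scalings, floors, filters, fits and leaving out animals were tried. The fits were tested on simulated data.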

Additional observations from a re-analysis of the deposited data

Results flagged for a closer look

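Over the differences of 4 animals, a gap test was applied to 135 genes and lists, and chance flags about 1 in 20. The animal apart was stimulated animal 2 in each case past the limit. The gap as a share of the range was 0.843 for Siglec1, 0.860 for Chrna3, 0.843 for Abcg1 and 0.900 for Cd44. It was 0.865 for the median of the reactive astrocyte list, 0.843 for that of the matrix protease list and 1.0 for that of the cortical neuron list, where the other medians were 0.

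The stimulated minus control difference of Tyrp1 was -4.82 (limma interaction, adjusted p = 0.0201), with values of 0.1 FPKM in the other 6 libraries compared.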

How the results depend on the processing

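In the paired fit, genes higher and lower numbered 0 and 0, and they numbered 92 and 874 with no replicate block, 255 and 534 with 1 FPKM in 4 of 8 libraries, 84 and 131 with upper-quartile scaling, 170 and 505 with median centring, and 133 and 538 with robust eBayes. With log2(FPKM + 1), 1 gene was lower. The floor of 1, no filter, quantile normalization and no trend gave 0 and 0. Settings added after seeing the data gave 6 and 16 without genes at the floor in all 8 libraries, and 223 and 437 with 1 FPKM in any of the 8. Leaving out 1 animal gave from 0 to 0 higher and from 0 to 1 lower. All 20 libraries gave 190 and 1776 with the block, and 142 and 1074 without it. In that model, quantile normalization gave 319 and 497, upper-quartile scaling 461 and 457, median centring 302 and 876, and the 12 cord libraries 968 lower, while leaving out 1 animal gave from 0 to 934 higher and from 2 to 1484 lower.

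Genes whose difference depended on stimulation numbered 1, and 2 with no replicate block and with log2(FPKM + 1), 5 with no filter, 185 with 1 FPKM in 4 of 8 libraries, 215 with robust eBayes, 290 without genes at the floor and 216 with 1 FPKM in any of the 8. They numbered 0 with the floor of 1, with each of the 3 other scalings and with no trend, and from 0 to 324 without 1 animal. The cause of these moves was not tested.

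Changes of sign were counted for genes only and not for the 36 lists. The difference changed sign for 6 of 99 genes. After quantile normalization it was 0.0714 for P2ry12, 0.0169 for Gfap, 0.111 for Vim and 0.0833 for Hbb. After upper-quartile scaling it was 0.0566 for P2ry12, 0.0225 for Gfap, 0.0726 for Vim, 0.00738 for Fth1 and 0.118 for Hbb. Median centring gave 0.00575 for Vim and 0.0511 for Hbb. Leaving out each animal in turn gave from -0.22 to 0.16 for Vim and from -0.73 to 0.51 for Col3a1, both highest without stimulated animal 2, and from -0.53 to 0.36 for Hbb. FPKM carries no read numbers, so the precision of low genes is unknown, and 4 animals limit the paired test.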
